A study of Rattus norvegicus with 8 samples.

Results

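The 10 genes described here are standard markers of astrocytes: Gfap, S100b, Slc1a2, Slc1a3, Glul, Aqp4, Gja1, Gjb6, Aldoc and Agt. They were taken by name from the array design, whose non-control probes carry 26269 gene names, and are read by 17 probes of 30367. The samples were hypothalami of lactating Wistar rats on postpartum day 7, from 4 dams exposed to TCDD and 4 control dams, each hybridised to 1 array of Agilent's Whole Rat Genome design in 1 colour. TCDD is the most potent of the dioxins and acts through the aryl hydrocarbon receptor, and the series asked what it does to hypothalamic RNA in nursing mothers. The sources used here name neither its dose nor how and when it was given. The samples are labelled hypothalamus, so the RNA came from a mix of cell types. Fewer astrocytes and less RNA per astrocyte cannot be told apart in these values. The labels do not say more about how the dams were kept or drawn. The p-values of the group test set the difference between groups against the spread within them, for these 8 samples.

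Astrocytes take up the glutamate and potassium that neurons release, turn glutamate into glutamine, and pass water and ions through end-feet on blood vessels. They are joined into networks by gap junctions made of connexins. In the hypothalamus they also sense glucose and hormones, and in lactating rats the astrocytes around oxytocin neurons are known to withdraw their processes from the neuronal surface. Some hypothalamic tanycytes, the elongated glia that line the third ventricle, share several of these genes, Gfap among them.

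All 17 probes were well above background on all 8 arrays, so every one of the 10 markers was measured in every dam. The tissue label held too: the single probes of Oxt, Avp, Pmch, Hcrt, Agrp, Pomc and Trh and both probes of Sim1, which are expressed by hypothalamic neurons, were well above background on all 8 arrays. Gfap, S100b, Slc1a2, Slc1a3 and Aldoc had 2 probes each, Aqp4 had 3, and Glul, Gja1, Gjb6 and Agt had 1. The probe with the highest mean signal stood for its gene in the gene test.

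Of the 17 probes, 5 are shown base by base as examples. Several results below turn on whether different probes of 1 gene moved alike, and only Slc1a2 has all its probes shown. Each is 60 bases long and is given from its 5′ end as the design lists it. Capitals mark the first stop triplet in the frame that begins at base 1, where there is one.
Aqp4 A_64_P018751 (rn4 chr18:6630285-6630344, minus strand): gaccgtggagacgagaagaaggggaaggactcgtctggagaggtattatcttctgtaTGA
Slc1a2 A_64_P033800 (rn4 chr3:87992261-87992320, plus strand): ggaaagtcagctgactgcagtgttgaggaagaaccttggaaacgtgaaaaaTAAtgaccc
Slc1a2 A_64_P031123 (rn4 chr3:87988366-87988425, plus strand): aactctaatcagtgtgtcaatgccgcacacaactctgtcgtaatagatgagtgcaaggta
Slc1a3 A_64_P021516 (rn4 chr2:58272281-58272340, minus strand): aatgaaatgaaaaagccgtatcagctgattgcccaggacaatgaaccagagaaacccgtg
Aldoc A_64_P056558 (rn4 chr10:64309543-64309602, minus strand): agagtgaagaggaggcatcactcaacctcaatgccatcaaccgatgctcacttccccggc
The Aqp4 and first Slc1a2 probes hold a stop triplet, and the other 3 hold none in that frame. Exons and UTRs of rn4 were not used here, so no exon or reading frame is named. Whether the probes of 1 gene read the same transcript forms was not tested.

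The 75th percentile of the processed signal ran from 474 to 699 over the arrays, 69.3% to 73.7% of spots were well above background, and no spot was saturated. All 4 TCDD samples lay on one slide and all 4 control samples on another, so slide and exposure cannot be told apart. The replicate number is the position of the array on its slide. Repeated probes varied most on the arrays at position 1, with a coefficient of variation of 5.15% on TCDD replicate 1 and 5.43% on control replicate 1, against 3.46% to 4.04% on the others. Signals are given as log2 of the processed signal relative to the 75th percentile of the array, so a value of 0 lies at that percentile. Probes differ in how well they hybridise, so values are compared between arrays for 1 probe and not between probes.

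None of the 10 astrocyte genes passed the test between TCDD-exposed and control dams. In limma with Benjamini-Hochberg adjustment over 16574 genes, 0 of the 10 had an adjusted p under 0.05, against 3 of all genes tested, or 0.0181%. At an unadjusted p under 0.05 the count was also 0 of 10, beside 11.0% of all genes. In 0 of 10 did the TCDD and control values lie apart without overlap, beside 7.31% of all genes. The fitted difference was above 0 in 3 of them and below 0 in 7, with a median log2 difference (TCDD minus control) of -0.04 in the 10 genes and -0.01 in all genes tested. The median pooled SD within groups was 0.13 in the 10 genes and 0.12 in all genes.

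**Figure D1:**
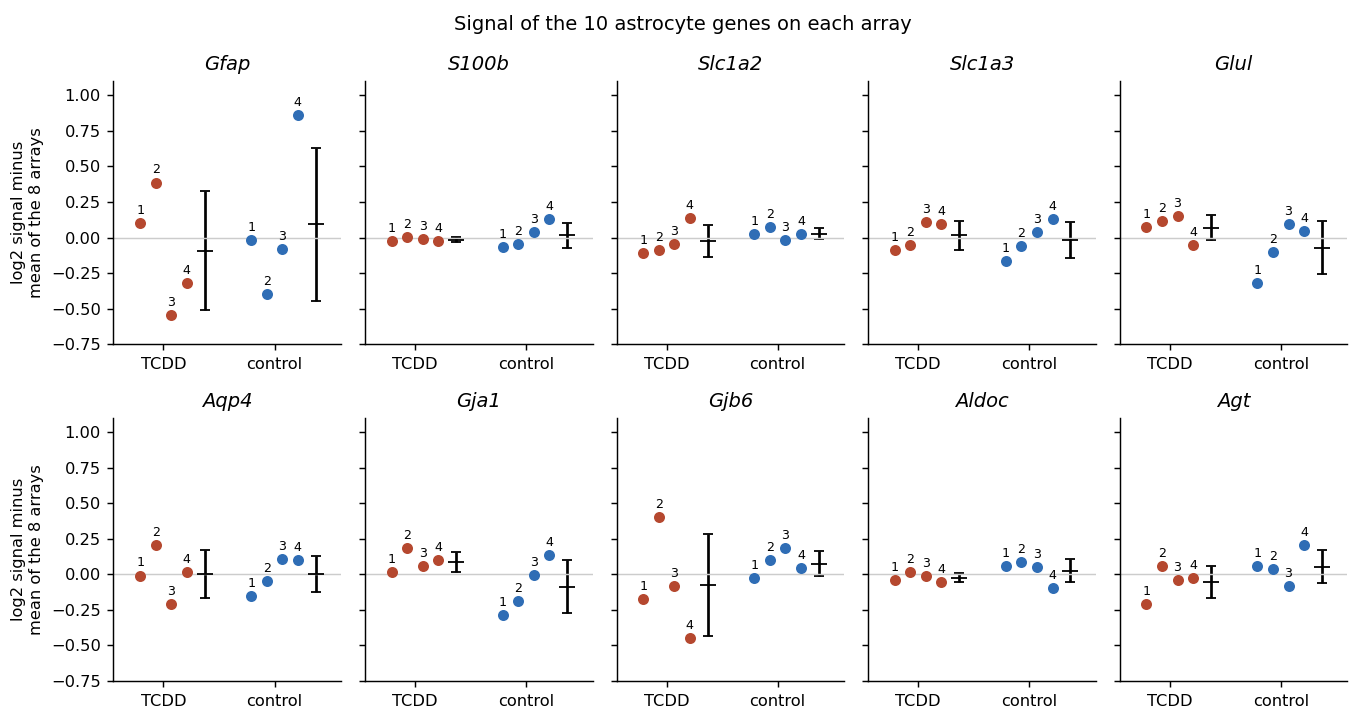
Log2 signal of each astrocyte gene on each array, minus the mean of its 8 arrays, with TCDD arrays left (red) and control arrays right (blue), numbered by replicate; black bars give the group mean ± SD (n = 4 each). The groups overlap in all 10 genes, Gfap spreads over 1.40 on the log2 scale and Gjb6 spreads mainly among the TCDD arrays.

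Gfap encodes the intermediate filament protein of astrocytes and is the usual stain for them. Its main probe read -0.77, -0.49, -1.42 and -1.19 in the 4 TCDD samples, against -0.89, -1.27, -0.95 and -0.01 in the 4 control samples. The highest array was control replicate 4 and the lowest TCDD replicate 3, and the groups overlapped over most of their range. The mean was -0.97 ± 0.42 in TCDD and -0.78 ± 0.54 in control dams (SD, n = 4 each), a log2 difference of -0.18 (SE 0.29, limma adjusted p = 0.874). The 95% interval ran from 0.551-fold to 1.40-fold, the widest of the 10. The 8 arrays spanned 2.65-fold, and 96.1% of the genes tested had a smaller pooled SD. Without control replicate 4 the difference turned to 0.0717, and without control replicate 2 it was -0.348.

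The main Gfap probe lies at rn4 chr10:92060835-92060894 and is printed 10 times on the array. The SD over its spots was 0.0626 to 0.0948, so the spread between arrays is larger than the spread between spots. Each dam had 1 array, so differences between dams and between hybridisations cannot be told apart. The second probe, 2257 bases away, read -2.56, -2.49, -3.08 and -2.38 in TCDD samples, against -2.57, -2.54, -2.35 and -2.03 in control samples. It too was highest on control replicate 4 and lowest on TCDD replicate 3, and its log2 difference was -0.26 (SE 0.18, adjusted p = 0.666). Across the 8 arrays both probes gave r = 0.723 (exact permutation p = 0.0521) and rho = 0.476 (exact p = 0.243). Without the 2 arrays farthest from the median r was -0.225, so their likeness rested on those 2 arrays. Whether both probes read the same Gfap transcript forms was not tested.

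The 2 arrays of highest Gfap, control replicate 4 and TCDD replicate 2, were also the highest in the tanycyte and reactive astrocyte lists. The mean log2 signal of the 9 tanycyte genes tested was -1.91, -1.06, -1.80 and -1.51 in TCDD samples, against -1.62, -1.65, -1.72 and -0.99 in control samples. The 19 reactive astrocyte genes tested averaged -1.29, -0.40, -1.23 and -1.13 in TCDD samples, against -1.26, -0.94, -0.995 and -0.52 in control samples. TCDD replicate 1, the next array in the order of Gfap, was the lowest array in both lists. TCDD replicate 2 and control replicate 4 were the 2 highest arrays in 7 of the 19 further lists. Those were the tanycyte, reactive astrocyte, filament and S100, ependymal, meningeal, red blood cell and pituitary lists. Of 11 tanycyte genes listed, 10 are on the array, and Rax, their defining transcription factor, was not well above background on all arrays of either group. Vim and Nes stand in both lists. Summed on a linear scale, the 9 genes tested came to 11.5 to 20.7 times the 75th percentile in TCDD samples, against 13.8 to 29.1 in control samples. The part of these cell types in the spread of Gfap was not tested.

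S100b encodes a calcium-binding protein that astrocytes also secrete. Its main probe (rn4 chr20:12791789-12791848) was the steadiest of the 10 in TCDD dams, with 5.85, 5.88, 5.86 and 5.85, against 5.81, 5.83, 5.92 and 6.002 in control dams. The SD was 0.015 in TCDD and 0.089 in control dams, and the TCDD values lay inside the control range. TCDD minus control came to a log2 difference of -0.03 (SE 0.056, adjusted p = 0.902), with an interval of 0.897-fold to 1.07-fold. It became 0.00899 without control replicate 4 and -0.0555 without control replicate 1.

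The second S100b probe, A_43_P15530, lies 110 bases away and gave another picture. It read 0.05, 0.14, 0.52 and 0.35 in TCDD dams, against -1.46, -0.63, -0.03 and 0.08 in control dams. Control replicates 1 and 2 stood low, while control replicate 4 lay above TCDD replicate 1, so the groups overlapped. Here the log2 difference was 0.77 (SE 0.32, unadjusted p = 0.0398, adjusted p = 0.427), against -0.03 for the main probe. Without control replicate 1 it was 0.46 (unadjusted p = 0.0484). This probe is printed 10 times, 9 or 10 of them used per array, and its spots on control replicate 1 ran from -2.50 to -0.90, an SD of 0.476, against an SD of 0.0506 to 0.222 on the other arrays. Both S100b probes gave r = 0.435 over the 8 arrays (exact p = 0.249; rho = 0.476, exact p = 0.243), and r = 0.857 without the 2 farthest arrays.

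The glutamate transporters showed small differences on every probe. Slc1a2 encodes GLT-1, which carries most glutamate uptake in the forebrain. Its main probe, the first of the Slc1a2 pair shown above, read 2.15, 2.16, 2.21 and 2.39 in TCDD dams, against 2.28, 2.33, 2.23 and 2.28 in control dams. TCDD replicate 4 was the highest array and the other 3 TCDD values lay below all 4 control values. The log2 difference was -0.05 (SE 0.065, adjusted p = 0.828), with an interval of 0.87-fold to 1.07-fold. Without TCDD replicate 4 it was -0.107 (unadjusted p = 0.0775), and without TCDD replicate 1 it was -0.0250. The second probe, 3895 bases away, differed by 0.01 (SE 0.061, adjusted p = 0.968), and the 2 probes gave r = 0.626 (exact p = 0.0939; rho = 0.548, exact p = 0.171), or 0.356 without the 2 farthest arrays.

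Slc1a3 encodes GLAST, the transporter that is strongest in cerebellar and retinal glia and is also carried by tanycytes. Its main probe (rn4 chr2:58270245-58270304) read 5.20, 5.23, 5.40 and 5.38 in TCDD dams, against 5.12, 5.23, 5.32 and 5.42 in control dams. The TCDD values lay inside the control range, with control replicate 1 lowest and control replicate 4 highest. This left a log2 difference of 0.03 (SE 0.081, adjusted p = 0.930), which was -0.0203 without control replicate 1 and 0.0784 without control replicate 4. The second probe, 2036 bases away, differed by 0.02 (SE 0.072, adjusted p = 0.956). The 2 Slc1a3 probes did not follow each other over the arrays, with r = 0.0737 (exact p = 0.857) and rho = -0.0476 (exact p = 0.935), and r = -0.0806 without the 2 farthest arrays.

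Glul encodes glutamine synthetase, which makes glutamine from the glutamate taken up. It read 3.47, 3.51, 3.55 and 3.35 in TCDD dams, against 3.08, 3.30, 3.498 and 3.44 in control dams. Control replicates 1 and 2 were the 2 lowest arrays and the rest overlapped. The mean was 3.47 ± 0.090 in TCDD and 3.33 ± 0.19 in control dams (SD, n = 4 each), a log2 difference of 0.14 (SE 0.098, adjusted p = 0.667). The interval ran from 0.944-fold to 1.29-fold. Without control replicate 1 the difference was 0.056. The design lists its probe as unmapped, so it has no position here.

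Aqp4 encodes the water channel of astrocyte end-feet. Its main probe (rn4 chr18:6626431-6626490) read 5.09, 5.30, 4.88 and 5.11 in TCDD dams, against 4.94, 5.05, 5.20 and 5.19 in control dams. The TCDD samples held both the highest and the lowest array. Between the group means the log2 difference was -0.00083 (SE 0.099, adjusted p = 0.998), the smallest of the 10, with an interval of 0.854-fold to 1.17-fold. It lay between -0.0685 and 0.0699 when each array was left out in turn.

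All 3 Aqp4 probes were lowest on TCDD replicate 3. The probe shown above read 0.03, 0.19, -0.23 and 0.41 in TCDD dams, against 0.02, -0.00136, 0.19 and 0.26 in control dams, a log2 difference of -0.02 (SE 0.13, adjusted p = 0.984). The third probe (rn4 chr18:6629662-6629721) read 1.07, 1.33, 0.73 and 1.27 in TCDD dams, against 1.23, 1.03, 1.23 and 1.22 in control dams, a log2 difference of -0.07 (SE 0.13, adjusted p = 0.891). Among the 3 pairs of Aqp4 probes r ran from 0.721 to 0.837 (exact p of 0.00831 to 0.0434) and rho from 0.714 to 0.762 (exact p of 0.0368 to 0.0576). Over the 8 pairs of probes of 1 gene the adjusted p of r for the Aqp4 pairs was 0.0665 to 0.104, so none passed. Without the 2 farthest arrays the 3 values of r were 0.250 to 0.669.

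The connexin genes differed in opposite directions and neither passed. Gja1 encodes connexin 43, the main gap junction protein of astrocytes, and its probe lies at rn4 chr20:35422026-35422085. It read 2.74, 2.90, 2.78 and 2.82 in TCDD dams, against 2.44, 2.53, 2.71 and 2.85 in control dams. Control replicates 1, 2 and 3 lay below all 4 TCDD values, and control replicate 4 lay above 3 of them. The mean was 2.81 ± 0.072 in TCDD and 2.63 ± 0.19 in control dams (SD, n = 4 each), a log2 difference of 0.17 (SE 0.094, unadjusted p = 0.100, adjusted p = 0.570). This was the smallest p of the 10, and the interval ran from 0.971-fold to 1.31-fold. With 1 array left out it ran from 0.11 without control replicate 1 to 0.25 without control replicate 4 (unadjusted p = 0.0171).

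Gjb6 encodes connexin 30, the second astrocyte connexin, and its probe lies at rn4 chr15:36177768-36177827. It read 2.98, 3.56, 3.08 and 2.70 in TCDD dams, against 3.13, 3.26, 3.34 and 3.20 in control dams. TCDD replicate 2 was the highest array and the other 3 TCDD values lay below all 4 control values. The SD was 0.36 in TCDD and 0.088 in control dams, and the SD over its 10 spots on an array was 0.0310 to 0.0694. The log2 difference was -0.15 (SE 0.16, adjusted p = 0.792). Without TCDD replicate 2 it was -0.31 (unadjusted p = 0.0161), and without TCDD replicate 4 it was -0.0247. TCDD replicate 2 also stood apart in the meningeal list, whose 9 genes averaged 0.58 there against -2.47 to -2.09 in the other TCDD samples and -2.15 to -0.53 in control samples. Summed on a linear scale, the 9 genes came to 2.73 to 23.8 times the 75th percentile in TCDD samples, against 3.41 to 11.4 in control samples. The part of meningeal tissue in the Gjb6 values was not tested.

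Aldoc and Agt are the astrocyte enzyme and the astrocyte peptide precursor of the set. Aldoc encodes aldolase C, the brain isoform of a glycolytic enzyme, and in the cerebellum also marks Purkinje cells. Its main probe (rn4 chr10:64308833-64308892) read 7.78, 7.84, 7.81 and 7.77 in TCDD dams, against 7.88, 7.91, 7.87 and 7.73 in control dams. The 8 arrays lay within 1.136-fold, the narrowest span of the 10, and control replicate 4 was below all TCDD values. The group means lay a log2 difference of -0.05 apart (SE 0.055, adjusted p = 0.805). Without control replicate 4 this was -0.0885 (unadjusted p = 0.106), and without control replicate 2 it was -0.0271.

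The second Aldoc probe, the one shown above, 710 bases away, was the only 1 of the 17 whose groups did not overlap. It read 4.71, 4.62, 4.65 and 4.41 in TCDD dams, against 4.83, 4.85, 4.83 and 4.71 in control dams. The lowest control value, 4.714, lay just above the highest TCDD value, 4.709. The log2 difference was -0.21 (SE 0.074, unadjusted p = 0.0218, adjusted p = 0.360), and it stayed between -0.25 and -0.15 when each array was left out in turn. This and the second S100b probe were the 2 of 17 with an unadjusted p under 0.05, beside 10.8% of the 19102 probes tested. Groups without overlap, found in 1 of the 17 probes, were found in 7.31% of all genes tested. Both Aldoc probes gave r = 0.630 (exact p = 0.0886; rho = 0.667, exact p = 0.0831), and r = 0.789 without the 2 farthest arrays.

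Agt encodes angiotensinogen, which in brain is made mainly by astrocytes, and its probe lies at rn4 chr19:54738614-54738673. It read 6.42, 6.69, 6.59 and 6.61 in TCDD dams, against 6.69, 6.67, 6.55 and 6.83 in control dams. TCDD replicate 1 was lowest and control replicate 4 highest. The log2 difference was -0.11 (SE 0.080, adjusted p = 0.689), with an interval of 0.817-fold to 1.05-fold. It was -0.0556 without TCDD replicate 1.

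**Figure D2:**
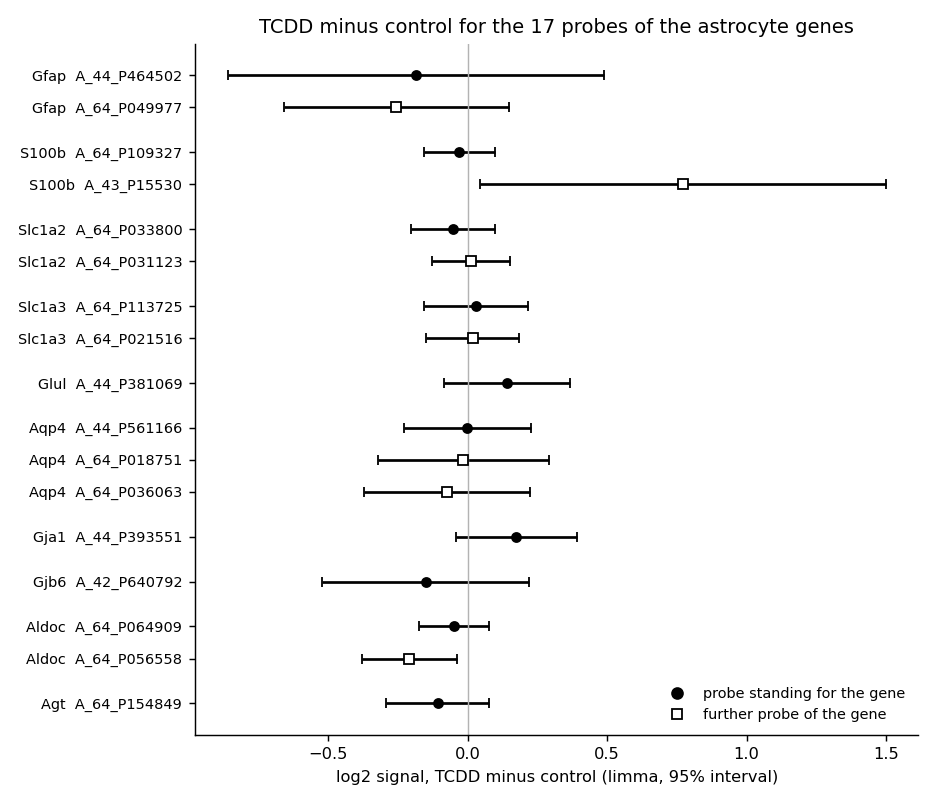
Log2 difference (TCDD minus control) of the 17 probes with its 95% interval from limma; filled circles are the probes that stand for their genes, open squares the further probes. The interval leaves out 0 for the second probes of S100b (0.77) and Aldoc (-0.21), while the main probes of both genes lie at -0.03 and -0.05.

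**Figure D3:**
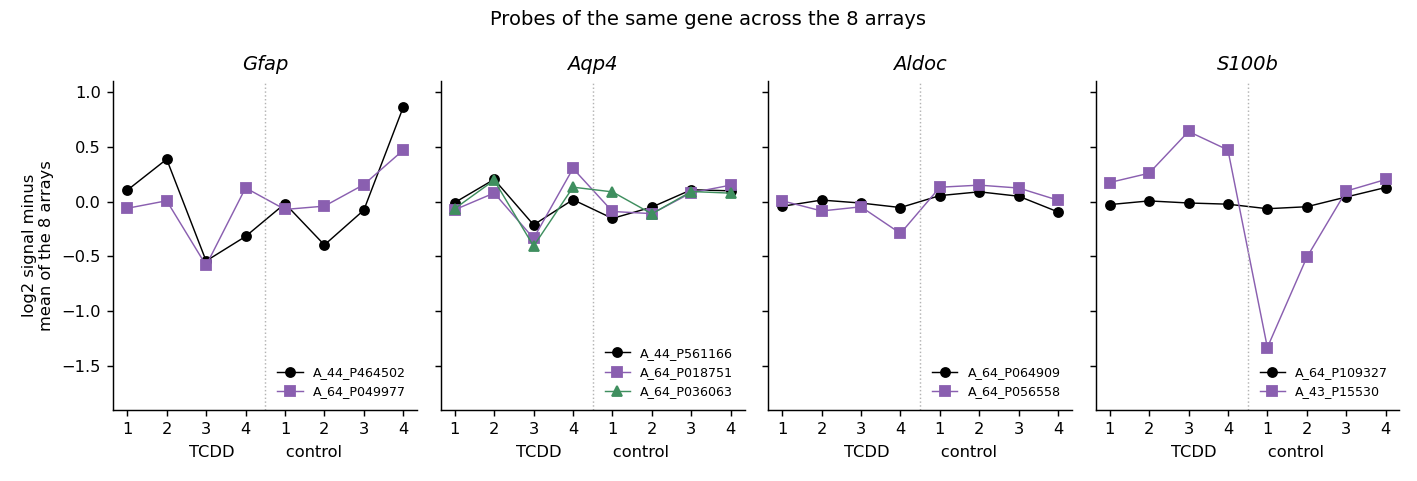
Log2 signal minus the mean of the 8 arrays for the probes of Gfap, Aqp4, Aldoc and S100b, with TCDD replicates left of the dotted line and control replicates right of it. The Aqp4 probes run together with a low on TCDD replicate 3. Both S100b probes are lowest on control replicate 1, and the second spans 1.97 on the log2 scale over the 8 arrays, against 0.19 for the main probe.

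The ligand-bound aryl hydrocarbon receptor pairs with ARNT and binds a dioxin response element whose core is GCGTG. The 250 bases before the transcription start were read from RefSeq's GRCr8 promoters, which hold 15 promoters for 9 of the 10 genes; Agt was not among them. The core was found, on either strand, in 2 of these 9 genes, Slc1a2 and Aldoc, beside 28.4% of 27457 genes with a promoter in the table. Both promoters are printed 5′ to 3′ along the gene with the core in capitals (CACGC is the core on the opposite strand).
Slc1a2 (GRCr8 chr3:109459859-109460108, plus strand): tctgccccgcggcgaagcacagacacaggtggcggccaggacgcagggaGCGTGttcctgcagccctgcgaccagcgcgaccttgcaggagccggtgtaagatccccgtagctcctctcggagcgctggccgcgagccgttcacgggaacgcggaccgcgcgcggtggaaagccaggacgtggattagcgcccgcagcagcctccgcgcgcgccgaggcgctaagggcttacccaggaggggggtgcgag
Aldoc (GRCr8 chr10:63715294-63715543, plus strand): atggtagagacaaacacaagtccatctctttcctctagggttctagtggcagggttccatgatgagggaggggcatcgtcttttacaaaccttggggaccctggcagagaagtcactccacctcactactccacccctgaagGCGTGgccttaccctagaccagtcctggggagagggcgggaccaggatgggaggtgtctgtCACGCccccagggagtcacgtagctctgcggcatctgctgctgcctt
RefSeq places Aldoc on the plus strand of GRCr8, while the array design places both Aldoc probes on the minus strand of rn4. The core begins 201 bases before the start in Slc1a2, which has a second promoter without it, and 108 and 47 bases before the start in Aldoc. The STAT motif TTCNNNGAA was in 0 of the 9 genes, beside 8.19% of all genes, and the NFI palindrome in 0 of 9, beside 0.0401%. STAT and NFI factors are known to drive Gfap in developing astrocytes. A match in this window is a description of its letters, and sites farther out were not searched.

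The 10 genes were partly correlated from array to array. Across the 8 arrays the median r over their 45 pairs was 0.230, beside 0.008 over all pairs of genes tested, and 30 of 45 pairs, or 66.7%, were positive, beside 50.6% of all pairs. On this scale 2 of the 45, or 4.44%, reached r of 0.7 or more, beside 4.51% of all pairs. On deviations from the group means, which take out exposure and slide, the median was 0.269 beside 0.011, and 7 of 45 pairs, or 15.6%, reached r of 0.7 or more, beside 5.89% of all pairs. Each of those 7 pairs held Gja1 or S100b, which gave r = 0.960 with each other, so the 7 are not separate findings. The median on values was 0.0586 without control replicate 4, 0.113 without TCDD replicate 1, 0.0993 after quantile normalization and 0.0982 in the authors' value table, and on deviations it was 0.138 after quantile normalization. All pairs share the 8 arrays and pairs share genes, so the 45 values are not independent. None passed: with 45 exact permutation tests the adjusted p was 0.552 or more for values and 0.234 or more for deviations. The test on deviations permutes arrays within groups and gives 0.00174 as its smallest p, so 1 pair alone could not go below an adjusted 0.0781.

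Gja1 and S100b followed each other most closely. On deviations they gave r = 0.960 (exact p = 0.00521, adjusted p = 0.234) and rho = 0.952 (exact p = 0.0139), and r was 0.876 without the 2 farthest arrays. With each array left out in turn it lay between 0.933 and 0.973, but it was 0.464 (exact p = 0.335) after quantile normalization and 0.462 in the authors' value table. On values as they stand r was 0.609 (exact p = 0.104; rho = 0.690, exact p = 0.0694); the TCDD mean was the higher one for Gja1 and the lower one for S100b. This r was 0.135 after quantile normalization and 0.904 with the mean of the probes of a gene. The SD of S100b was 0.015 in TCDD and 0.089 in control dams, and that of Gja1 was 0.072 and 0.19. The r on deviations therefore rests mainly on the 4 control arrays, and the 4 arrays of a group are too few for an r of their own.

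Gja1 and Glul had the highest r on values, 0.803 (exact p = 0.0180, adjusted p = 0.552; rho = 0.548, exact p = 0.171). Both genes were lowest on control replicates 1 and 2, and without those arrays r was -0.147. The second S100b probe was lowest on the same 2 arrays. Gfap and S100b gave r = 0.722 on values (exact p = 0.0463, adjusted p = 0.552; rho = 0.381, exact p = 0.360), and 0.220 without control replicate 4, the array on which both were highest. With the mean of the probes of a gene it was 0.0426.

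Aldoc had mostly negative r with the other markers over the 8 arrays. On values it had a negative r with 7 of the 9 other genes, the lowest with Gja1 at -0.705 (exact p = 0.0517, adjusted p = 0.552; rho = -0.714, exact p = 0.0576), or -0.312 without the 2 farthest arrays. On deviations it gave r = -0.762 with S100b (exact p = 0.151, adjusted p = 0.485; rho = -0.429, exact p = 0.476), which became 0.0230 without control replicate 4 and -0.0862 after quantile normalization. That array held the lowest Aldoc and the highest Gfap, S100b, Agt and Slc1a3 values of the 8. For Aldoc with Gja1 and with S100b the sign of r differed between the groups, a difference that was not tested. Aldoc and Gja1 gave r = 0.653 over the 4 TCDD arrays and -0.811 over the 4 control arrays. Aldoc and S100b gave 0.955 and -0.886, though 4 arrays are too few for an r of their own. Slc1a2 was the other gene with mostly negative r, with 6 of 9 pairs below 0 on values.

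**Figure D4:**
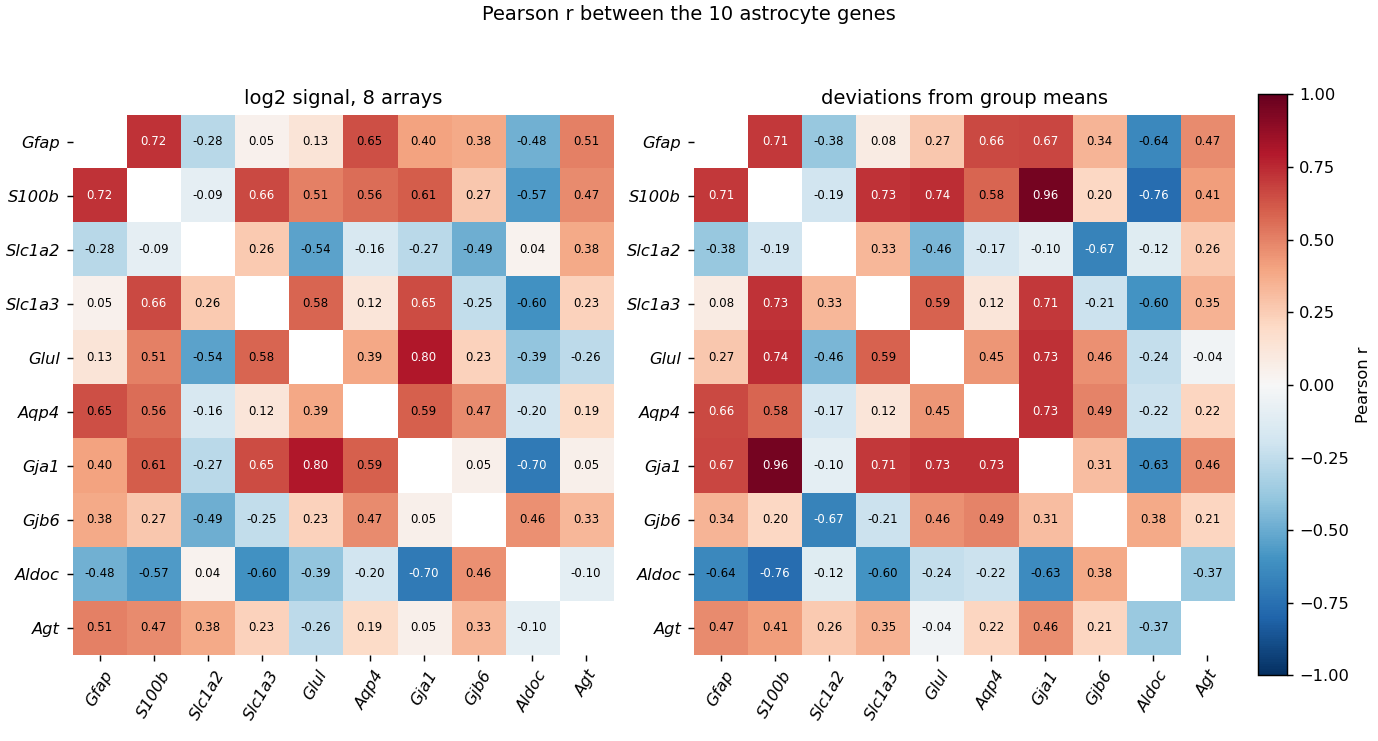
Pearson r between the 10 astrocyte genes over the 8 arrays, left on log2 signal and right on deviations from the group means, from -1 (blue) to 1 (red). Gja1 and S100b reach 0.96 on deviations (0.464 after quantile normalization, not drawn), and the rows of Aldoc and Slc1a2 are mostly below 0.

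For each gene, the 3 named genes of most similar pattern were taken from 11065 genes well above background on all 8 arrays, by Pearson r of deviations from the group means. With so many genes and 8 arrays, every member had neighbours at r of 0.956 or more, so a high value alone sets no gene apart. Gfap was closest to Bmpr1a, a BMP receptor (0.979), Ano1, a calcium-activated chloride channel (0.977), and Mtmr3, a lipid phosphatase (0.976). S100b was closest to Nptx2, a neuronal pentraxin (0.978), Fezf2, a forebrain transcription factor (0.978), and Mlc1, an astrocyte membrane protein (0.969). Gja1 was closest to Ssc5d (0.981), Nmi (0.967) and Tfip11 (0.961). S100b stood in place 5 among the neighbours of Gja1, and Gja1 in place 6 among those of S100b. For the other 8 genes, the nearest fellow marker stood between place 261 (S100b for Glul) and place 3305 (Slc1a3 for Slc1a2).

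Slc1a2 was closest to Trerf1 (0.975), Coil (0.973) and Exoc4 (0.965), and Slc1a3 to Sdpr (0.982), Shisa7 (0.980) and Nisch (0.979). Glul was closest to Mertk (0.979), a receptor kinase with which astrocytes engulf synapses, Ints4 (0.975) and Slc19a2 (0.960). Aqp4 was closest to Sipa1 (0.964), Gpatc2 (0.963) and Lmf2 (0.956), and Gjb6 to Tmem127 (0.974), Tgfb1 (0.972) and Hic1 (0.964). Aldoc was closest to Mepe (0.984), Car7 (0.981) and Kcns3 (0.979), and Agt to RT1-T24-1 (0.979), Inhba (0.978) and Sox4 (0.978). None of these 30 passed the test between TCDD and control dams, with adjusted p of 0.425 or more.

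Further astrocyte genes outside the set gave no call either. Of 43 listed, 41 are on the array and 39 were tested, 19 with a difference above 0 and 20 below 0, and 0 passed. Their median log2 difference was -0.00121, beside -0.0102 in all genes tested. The 2 with the smallest p were Itih3, an inter-alpha-trypsin inhibitor heavy chain (6.23 in TCDD and 6.41 in control dams, log2 difference -0.18, adjusted p = 0.421), and Gabrg1, a GABA-A receptor subunit (1.09 in TCDD and 0.90 in control dams, log2 difference 0.19, adjusted p = 0.471).

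The pathways around the 10 genes held no gene past the threshold, with 0 of the 235 list genes tested called. In the glutamate cycle 9 of 19 lay above 0 and 10 below, with Pc, the pyruvate carboxylase that refills the citric acid cycle in astrocytes, at -0.14 (adjusted p = 0.403) and the transaminase Got2 at -0.12 (adjusted p = 0.482). Around Aqp4, 7 of 11 genes lay above 0, with a list median of 0.08. The chloride channel Clcn2 was at -0.09 (adjusted p = 0.630). Among connexins and pannexins 6 of 11 lay above 0, with Gjb1, the oligodendrocyte connexin 32, at -0.14 (adjusted p = 0.697) and Gjc3 at 0.14 (adjusted p = 0.736).

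Of 11 genes of the angiotensin pathway 4 lay above 0, with Mas1, the receptor for angiotensin 1-7, at -0.39 (adjusted p = 0.554). Of 22 genes of glycolysis and lactate transport 14 lay above 0, with the hexokinase Hk1 at 0.13 (adjusted p = 0.367) and the lactate dehydrogenase Ldhb at -0.12 (adjusted p = 0.413). Filament and S100 genes split evenly, 7 of 14 above 0, with S100a1 at -0.08 (adjusted p = 0.772) and S100a13 at 0.10 (adjusted p = 0.815).

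Of the reactive astrocyte genes 7 of 19 lay above 0 and 12 below, with a list median of -0.06 and 0 called. The complement component C3 had the smallest p of that list. It read -1.67, -1.44, -1.86 and -1.14 in TCDD dams, against -0.79, -1.28, -0.85 and -0.55 in control dams. TCDD replicate 4 lay above control replicate 2, so the groups overlapped. The log2 difference was -0.66 (SE 0.19, unadjusted p = 0.00817, adjusted p = 0.251). Psmb8, an immunoproteasome subunit, was at -0.31 (adjusted p = 0.498). Of the 26 reactive genes on the array, 7 were not tested, because they were not well above background on all arrays of either group.

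Markers of other cell types were read the same way. Neuronal genes lay close to 0, with a median of -0.01 and 7 of 16 above 0 (Rbfox3 0.16, adjusted p = 0.607; Map2 0.16, adjusted p = 0.607). The list medians were -0.10 in oligodendrocytes (Olig2 0.27, adjusted p = 0.254; Olig1 -0.15, adjusted p = 0.483), -0.04 in microglia (Trem2 -0.28, adjusted p = 0.559; Itgam -0.21, adjusted p = 0.600) and 0.05 in endothelium and mural cells (Pecam1 0.14, adjusted p = 0.588; Flt1 0.16, adjusted p = 0.620). They were -0.00222 in oligodendrocyte precursors (C1ql1 -0.14, adjusted p = 0.646), -0.09 in tanycytes, -0.0076 in ependyma (Dynlrb2 0.13, adjusted p = 0.709) and -0.02 in choroid plexus (Enpp2 -0.08, adjusted p = 0.821). The meningeal, red blood cell and pituitary lists stood farther from 0 and varied widely between arrays. All 9 meningeal genes lay below 0, with a median of -0.38 (Ogn -1.06, adjusted p = 0.753) that ran from -1.07 without TCDD replicate 2 to -0.0825 without TCDD replicate 1, and all 5 red blood cell genes above 0, with a median of 0.88 (Hbb 0.88, adjusted p = 0.346). Of 8 pituitary genes 3 were tested, all above 0, with a median of 1.43 (Tshb 2.45, adjusted p = 0.709). Without control replicate 2 the pituitary median was -0.0740 and Tshb was at 0.92. With 1 array left out, the medians of 16 of the 19 further lists took both signs, all but those of the meningeal, oligodendrocyte and red blood cell lists. Of the 28 list genes named by p, 12 moved by over 1.5 times and 0 changed sign. Choosing genes by small p in these same arrays favours a kept sign, so this count does not show that they are stable. The 10 astrocyte genes averaged 4.09, 4.26, 4.07 and 4.08 in TCDD samples, against 4.05, 4.08, 4.17 and 4.29 in control samples, and the part of other cell types in these means was not tested.

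**Figure D5:**
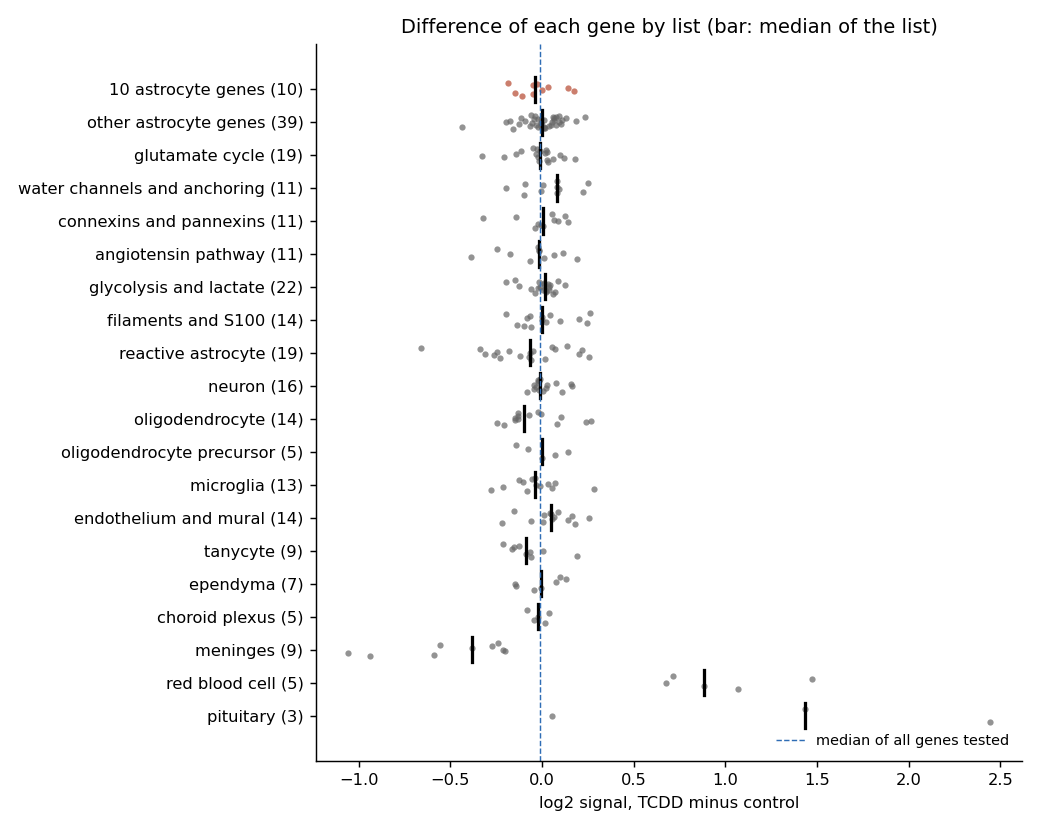
Log2 difference (TCDD minus control) of every gene tested in the astrocyte set (red) and in 19 further lists (grey), with the number of genes in brackets, a black bar at the list median and a dashed line at the median of all genes tested. The 10 astrocyte genes lie between -0.18 and 0.17, and the meningeal, red blood cell and pituitary lists lie farthest from 0.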

How the data were processed

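Each array came as its scanner file, in which the authors deposited linear spot intensities. Per the file headers these were extracted with Agilent Feature Extraction 10.7.1.1, which subtracted background and corrected spatial trends. A series-wide table of intensities was deposited too. Its 8 columns share a median of 65.1 and 1 set of values, as after quantile normalization, though nothing says how it was made. It was tried as an alternative, and is not a separate check from quantile normalization. From the processed signal, log2 was taken and the 75th percentile of each array's probes subtracted. The 1377 control spots and outlier spots were left out, and spots of 1 probe were averaged. Probes well above background on all 4 arrays of a group were tested (19102 probes, 16574 genes), with the brightest probe standing for its gene.

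Groups were compared with limma 3.58.1 in R 4.3.3 (2-sided tests from lmFit and eBayes on a model with exposure group alone), adjusted by Benjamini-Hochberg over all genes or all probes. Correlations were tested by 2-sided exact permutation of the 8 arrays (40320 orders) or within groups (576 orders) in Python 3.11.15 with scipy 1.17.1. Both scripts were first tested on simulated data. The number of arrays limits the precision. The alternatives changed background correction, scaling, filter, probe handling, variance model, array weights, block and arrays. The 10 genes and all gene lists were chosen with earlier results of these data known. Named were the 10 genes, the 2 genes of smallest p in each further list (1 in lists of fewer than 10 tested genes), and 3 neighbours of each gene; 3 genes of the further lists that this rule names are not reported here. Probe positions are the design's, on rn4. Promoters are RefSeq's, on GRCr8.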

Additional observations from a re-analysis of the deposited data

Results flagged for a closer look

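Each of the 17 probes was examined in the TCDD and in the control arrays, 34 groups of 4, for an array far from the other 3. Such a gap is found by chance in about 1 group in 20. In 1 group it was: the Aqp4 probe A_64_P036063 read 1.03 on control replicate 2, while the nearest other control array read 1.22, and this gap took up 0.926 of the group's range. The other Aqp4 probes read 5.05 and -0.00136 on that array and were not set apart there.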

How the results depend on the processing

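Of the 10 astrocyte genes, 0 passed under each of the 20 alternatives, and 0 of their further probes and 0 of the other list genes passed under any alternative in which they were tested. No pair among the 45 passed on values under the alternatives run for correlations. Deviations and Spearman's rho were counted in the main setting only, and no pair passed there. Without both replicate 1 arrays too few orders remain for 1 pair alone to pass. Over all genes, 3 passed, against 20 with normexp background correction, 28 with probes above background on all 8 arrays, 34 with an intensity trend, 96 with array weights, 0 with no filter and 0 to 7 without 1 array. Same-numbered arrays correlated at 0.228, -0.00309, -0.0452 and 0.103 in their deviations, and 3 of 8 correlated best with their own number. With so few arrays this cannot tell whether the numbers pair the dams, and the labels do not say. With the replicate number as a block 0 genes passed, and the median r of the 45 pairs was 0.235, with no pair test.

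Several signs turned, none past the threshold. Aqp4 was 0.0604 with normexp and 0.0136 with the percentile over all spots (an alternative chosen after seeing the data). S100b was 0.37 as the mean of its probes. Flt1 was -0.00344 with normexp. The second Slc1a2 probe was -0.00758 with normexp, -0.00867 with array weights and -0.0152 without both replicate 1 arrays, where the second Slc1a3 probe was -0.00649. Without 1 array, Gfap ran from -0.348 to 0.0717, Aqp4 from -0.0685 to 0.0699, S100b from -0.0555 to 0.00899 and Slc1a3 from -0.0203 to 0.0784. The second probes of Slc1a2 ran from -0.0276 to 0.0305 and of Slc1a3 from -0.0242 to 0.0597, the Aqp4 probes A_64_P018751 from -0.118 to 0.0943 and A_64_P036063 from -0.150 to 0.0510, and r of Aldoc and S100b on deviations from -0.853 to 0.0230. Of list medians, the pituitary ran from -0.0740 to 2.95, tanycytes from -0.233 to 0.132 and reactive astrocytes from -0.307 to 0.0847. The cause of these turns was not tested. Probes near background have the least certain values, and all 17 probes described here lay above it.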
